A study of Mus musculus with 3 samples.

Results

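The genes described here are 9 filamin and LIM-domain genes of the actin cytoskeleton (Flna, Flnc, Fhl1, Fhl2, Fhl3, Pdlim1, Pdlim5, Pdlim7 and Csrp1), measured in mouse cardiac myofibroblasts that were attached to plastic, held in suspension and attached again. They were chosen by name, through the RefSeq transcript that each probe of the array carries, and are 9 of the 15393 genes measured. The choice was made with earlier results of these data known. They were covered by 14 probes, and 6 of the 9 genes had 1 probe. All 9 genes were well above background on every array, and none of their spots was saturated or marked as an outlier.

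Filamins are large dimeric proteins that cross-link actin filaments and tie them to integrins and other membrane proteins. The LIM domain is a zinc-binding fold that holds proteins together, and many LIM proteins sit at focal adhesions, along stress fibres or at the Z discs of muscle, where they meet tension-bearing actin. In the injured heart, fibroblasts that build stress fibres and contract become myofibroblasts, the cells that lay down scar collagen.

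The cells came from hearts of male C57BL/6J mice, with no engineered allele named in the labels, in which the left anterior descending artery of the heart had been tied off for good 3 days earlier. The age is labelled as 8 weeks, and as 10 weeks at ligation in the treatment notes. All 3 states share the same preparation: collagenase and elastase digestion of the infarcted heart, attachment to plastic overnight, and removal of cells carrying CD45 on a magnetic column. Adherent cells were grown on plastic plates, non-adherent cells were moved from plates into suspension, and re-adherent cells were put back on plates after suspension. Each state was measured on 1 one-colour array from cells of pooled hearts, so there was no spread between animals, no test and no p-value. Errors given after ± are technical errors of the scanner software, taken over both spots of a difference, and a difference is called past the technical interval where 0 lies outside its 95% interval from that error. Signals are printed as read from each array, before scaling, whereas folds, percentages and log2 differences use signals divided by the 75th percentile of the array, so a fold is not the plain ratio of the signals printed beside it. The errors cover the reading of a spot and not the variation between cultures. The states were collected one after another, so time in culture and state cannot be told apart. The study also reports that most cells were lost in suspension through death on detachment, and that the cells left were re-plated. Survival of some cells and change of state cannot be told apart either.

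Of the 59305 spots that are not controls, an array had between 53.9% and 59.9% well above background. All 10 fibroblast marker genes were well above background in all 3 states, with a summed scaled signal (signal over the 75th percentile of the array) of 1115, 895 and 842 in adherent, non-adherent and re-adherent cells. Single fibroblast markers moved far in both directions, with 4 of 10 past 2-fold downwards in suspension and 2 upwards. Thy1 was the lowest in suspension (log2 difference -3.50) and Lum the highest (3.56). Macrophage markers (9 of 11 measured) were also well above background on every array. Their summed scaled signal was 165, 938 and 311 in the same order, and 8 of the 9 were over 2-fold higher in suspension than in adherent cells. Ptprc, which encodes CD45, was among them, with a log2 difference of 2.68. Endothelial markers (7 of 7 measured, of which 5 were above background on every array) summed to 16.4, 20.1 and 19.9. Kdr was the brightest of the 7, at 9446 in adherent cells, with differences of -0.35 and then 0.74. Even so, 4 of the 7 were over 2-fold higher in suspension (median log2 difference 1.21). On return 6 of the 7 were over 2-fold lower (median -2.58), among them Tie1 and Emcn, which were not above background on the re-adherent array. Smooth muscle and pericyte markers (7 of 7, of which 3 were above background on every array) summed to 18.6, 15.0 and 13.8. In suspension 2 were past 2-fold downwards (Cspg4, and Myh11, which was not above background there). The 2 past 2-fold upwards, Kcnj8 and Abcc9, were above background on the non-adherent array only, so these counts carry little information. Cardiomyocyte markers (6 of 9, of which 5 were above background on every array) summed to 1.26, 2.02 and 3.41. The brightest of them was Tnnt2 (593, 955 and 1646), whereas 4 of the 6 were lower on return. Most macrophage and several endothelial markers thus moved in the opposite direction to the genes described here, and the part of these marker genes in the differences below was not tested. In such bulk RNA, fewer cells of a type and less RNA per cell cannot be told apart.

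In suspension, 8 of the 9 genes were over 2-fold lower than in adherent cells, and none was over 2-fold higher. Over all genes, the share past 2-fold was 14.7% downwards and 17.2% upwards. Because the 9 genes were chosen with earlier results of these data known, such shares beside their counts are a description without a test. The median difference was -2.34 over the 9 genes and -0.07 over all genes, on the log2 scale of signal relative to the 75th percentile of the array. On the return to plates, the same 8 genes were over 2-fold higher than in suspension, beside 15.6% of all genes, and none was over 2-fold lower, beside 16.3%. Re-adherent and adherent cells differed by less than 2-fold in all 9 genes, as they did in most genes measured. Over all genes, 4.9% were past 2-fold downwards and 4.84% upwards, so this does not set the 9 genes apart. The gene outside the pattern was Fhl3. Both steps share the non-adherent array, so that its own reading error enters both with opposite signs.

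**Figure D1:**
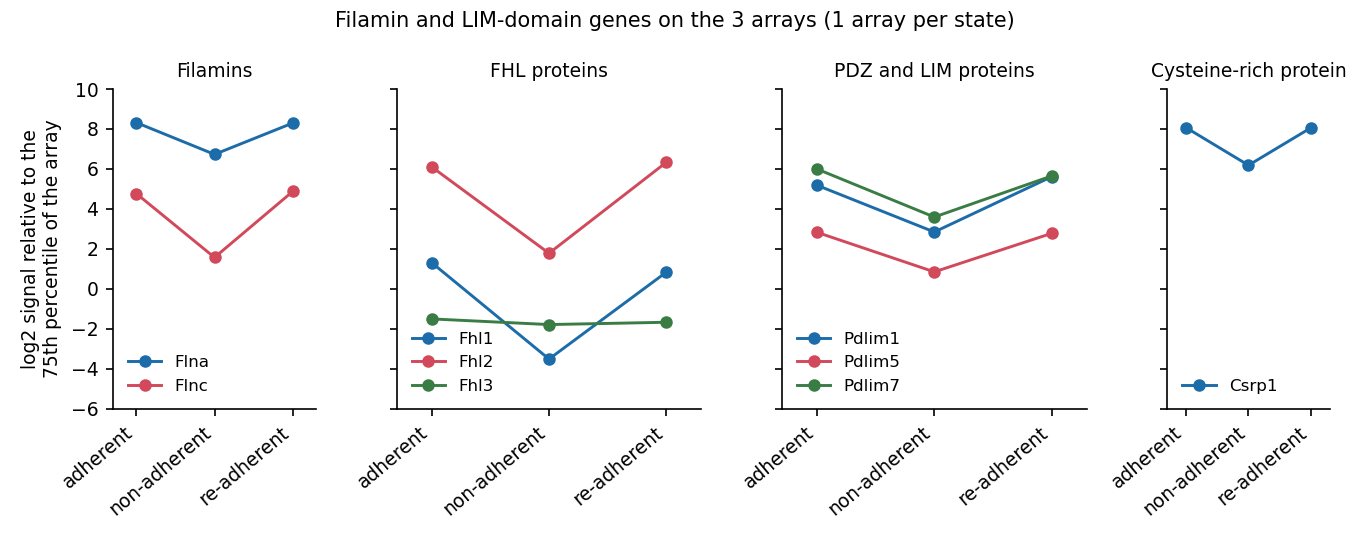
Log2 signal relative to the 75th percentile of the array (vertical axis) for the 9 genes in adherent, non-adherent and re-adherent cells, 1 point per array and 1 panel per protein family. Lines dip at the non-adherent array and come back for every gene except Fhl3, whose line is almost flat; heights of different genes come from different probes and are not to be ranked.

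A window of 250 bases before the start site is printed for 3 of the genes, because Fhl1 and Fhl2 gave the largest differences of the 9 and Flna the smallest of the 8 that passed 2-fold. The sequences are from RefSeq for the mouse assembly GRCm38.p6, on the strand of the gene, 5′ to 3′. Capitals mark a CArG box, the binding motif of serum response factor, in Fhl1 and Fhl2, and the letters CATTCC, the core motif of TEAD factors, in Flna. The Fhl1 window is chrX:56779433-56779682 on the plus strand. The first Fhl2 window is chr1:43196762-43197011 and the second, before another annotated start of the gene, is chr1:43163962-43164211, both on the minus strand. The Flna window is chrX:74246535-74246784 on the minus strand.
Fhl1: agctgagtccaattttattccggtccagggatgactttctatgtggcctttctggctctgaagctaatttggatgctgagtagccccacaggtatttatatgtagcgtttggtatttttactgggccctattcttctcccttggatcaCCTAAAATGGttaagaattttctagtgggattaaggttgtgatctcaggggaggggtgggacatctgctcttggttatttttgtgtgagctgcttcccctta
Fhl2, first start: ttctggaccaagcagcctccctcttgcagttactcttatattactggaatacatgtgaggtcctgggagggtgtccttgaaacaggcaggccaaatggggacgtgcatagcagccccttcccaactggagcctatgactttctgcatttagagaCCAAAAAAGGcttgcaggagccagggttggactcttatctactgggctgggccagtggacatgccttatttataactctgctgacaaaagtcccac
Fhl2, second start: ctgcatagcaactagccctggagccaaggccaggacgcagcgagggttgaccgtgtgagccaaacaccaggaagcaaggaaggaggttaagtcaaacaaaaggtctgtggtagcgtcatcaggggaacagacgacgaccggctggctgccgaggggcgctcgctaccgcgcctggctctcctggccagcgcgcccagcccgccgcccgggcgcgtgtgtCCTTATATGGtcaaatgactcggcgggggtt
Flna: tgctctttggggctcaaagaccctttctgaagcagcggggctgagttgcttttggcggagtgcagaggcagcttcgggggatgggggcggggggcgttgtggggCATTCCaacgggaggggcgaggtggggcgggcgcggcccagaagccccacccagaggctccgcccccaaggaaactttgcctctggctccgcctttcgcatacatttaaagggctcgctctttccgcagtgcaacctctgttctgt
The capitals begin 102 bases before the start of Fhl1, 96 and 31 bases before the starts of Fhl2, and 146 bases before the start of Flna. Both motifs were searched on both strands in windows that run from 250 bases before to 50 bases after a start. A CArG box was present in 1.63% of 32851 annotated windows, and in 3 of the 14 windows of the 9 genes, those of Fhl1 and Fhl2. CATTCC was present in 14.7% of all windows and in 3 of the 14 windows of the 9 genes, those of Flna and Flnc, where the Flnc windows overlap and hold the same match. Every window printed holds a match, and those of Flnc, which fell further in suspension than Flna, are not printed. The printed windows thus do not show how the motifs relate to the size of the falls. These are matches of letters only, and binding was not measured.

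Flna and Flnc both fell in suspension, Flnc further than Flna. Flna, the filamin of most non-muscle cells, gave a signal of 207660 in adherent cells, 73806 in suspension and 169888 after re-attachment. After scaling it was 3.01-fold lower in suspension, with 33.2% of the adherent scaled signal left (log2 difference -1.59 ± 0.20), and 2.96-fold higher again on plates (1.57 ± 0.20). Re-adherent and adherent cells differed by -0.02 ± 0.20. The size of the Flna change varied with the normalization: with quantile normalization it was -1.17 into suspension and 0.84 on return, the latter under 2-fold. Flnc, the filamin of heart and skeletal muscle, read 17683 in adherent cells, 2065 in suspension and 15828 after re-attachment. Flnc was 9.16-fold lower in suspension (log2 difference -3.20 ± 0.20, 10.9% of the adherent level) and 9.86-fold higher on return (3.30 ± 0.20), leaving 0.11 ± 0.20 between both attached states. The fall of Flnc exceeded that of Flna by 1.61 ± 0.29 log2 units and was past the technical interval.

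Of the FHL proteins, which consist of LIM domains alone, Fhl1 and Fhl2 gave the largest falls of the 9 genes and Fhl3 the smallest. Fhl1, abundant in striated muscle and linked to its stretch responses, gave a signal of 1606 in adherent cells, 60.8 in suspension and 961 after re-attachment. In suspension it was 28.3-fold lower (-4.82 ± 0.22), with 3.54% of the adherent level left, and on return 20.3-fold higher (4.35 ± 0.22). Its re-adherent level stayed at 71.9% of the adherent level, a log2 difference of -0.48 ± 0.20 that was just past the technical interval. The non-adherent spot was dim, and a different background correction (normexp) gave smaller differences of -3.78 and 3.34.

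Fhl2, which binds integrins at adhesions and also acts as a transcriptional cofactor, read 44576 in adherent cells, 2388 in suspension and 43456 after re-attachment. It was 20.0-fold lower in suspension (-4.32 ± 0.20) and 23.4-fold higher again on plates (4.55 ± 0.20). Adherent and re-adherent Fhl2 differed by 0.23 ± 0.20, within the technical interval. Fhl1 and Fhl2 were the only genes of the 9 to pass a 16-fold change in both steps, the threshold that the study used for genes lost in suspension and regained, beside 0.806% of all genes (124 of 15393). The count fell to 1 with normexp and with no scaling between arrays, where Fhl1 missed the threshold. Their falls differed by -0.50 ± 0.30 (Fhl1 minus Fhl2), within the technical interval, while the net difference of re-adherent from adherent cells was lower for Fhl1 by 0.70 ± 0.29.

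Fhl3, a close relative that binds actin, behaved differently from both. Its brighter probe gave 229 in adherent cells, 201 in suspension and 169 after re-attachment, with log2 differences of -0.28 ± 0.21 and 0.12 ± 0.21, both within the technical interval. Its other probe gave 148, 92.2 and 127, with differences of -0.78 ± 0.21 and 0.83 ± 0.21, past the technical interval but under 2-fold. The 109 non-control spots around that dim probe had median differences of -0.32 and 0.63, and the part of position was not tested. The direction on return flipped for the brighter probe with no scaling between arrays (-0.25), with spike-in scaling (-0.13) and in the authors' values (-0.16). By the brighter probe, Fhl3 minus Fhl2 was 4.04 ± 0.29 into suspension and -4.43 ± 0.29 on return. Fhl5, another FHL gene, likewise had small differences of -0.24 ± 0.24 and 0.13 ± 0.26.

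**Figure D2:**
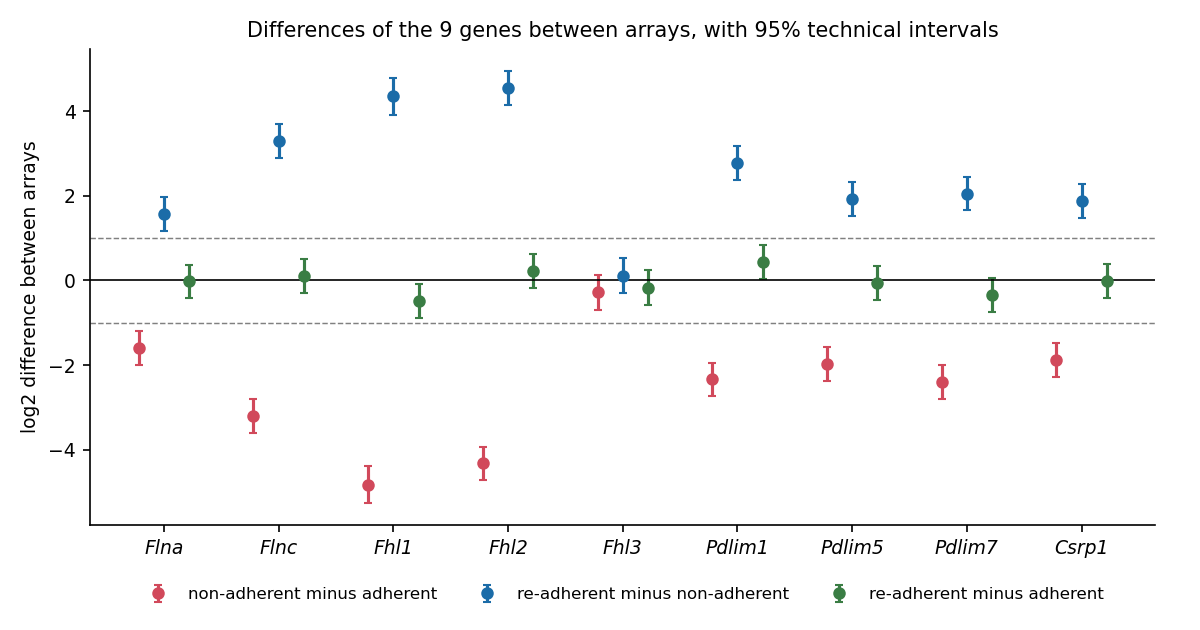
Log2 difference between arrays (vertical axis) for each of the 9 genes, in the 3 comparisons given by colour; bars are 95% technical intervals and dashed lines mark 2-fold. In 8 genes the non-adherent minus adherent points lie below the lower line and the re-adherent minus non-adherent points above the upper one, while all re-adherent minus adherent points lie between the lines.

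The 3 genes with a PDZ and LIM domain architecture all fell in suspension by similar amounts. Proteins of this family bind α-actinin or tropomyosin through the PDZ domain and recruit partners through their LIM domains. Pdlim1, which places kinases on stress fibres through α-actinin, gave 23594 in adherent cells, 4995 in suspension and 26371 after re-attachment. It was 5.06-fold lower in suspension (-2.34 ± 0.20) and 6.79-fold higher on return (2.76 ± 0.20). Its re-adherent level was above the adherent one by 0.43 ± 0.20, at 134% of it, just past the technical interval, and this excess turned to -0.052 under spike-in scaling.

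Pdlim7, also known as Enigma, read 41446 in adherent cells, 8394 in suspension and 27079 after re-attachment with its brightest probe. The differences were -2.40 ± 0.20 into suspension (5.28-fold) and 2.05 ± 0.20 on return (4.15-fold), with -0.35 ± 0.20 left between re-adherent and adherent cells. A second probe of the same transcript (NM_001114088) gave 1920, 546 and 1639, and a probe of transcript NM_026131 gave 1332, 315 and 992. Their falls of -1.91 and -2.18 and their rises of 1.95 and 2.02 lay near those of the brightest probe. Over the 3 Pdlim7 probes the differences spanned 0.49 log2 units into suspension and 0.10 on return.

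Pdlim5, an α-actinin-binding scaffold for protein kinase C, fell with all its probes but came back unequally. The probe of transcript NM_001190852 gave 4609 in adherent cells, 1252 in suspension and 3696 after re-attachment, and the scaled change was -1.98 ± 0.20 (3.94-fold) and then 1.93 ± 0.20 (3.80-fold), with -0.05 ± 0.20 left. Both probes of transcript NM_019809 fell by similar amounts, from 914 to 209 (-2.23 ± 0.21) and from 399 to 83.2 (-2.36 ± 0.21). On return they reached 409 and 167, which left them -0.90 ± 0.20 and -0.99 ± 0.21 from adherent cells. The net difference of the NM_019809 probes was lower than that of the NM_001190852 probe by 0.84 ± 0.29 and 0.94 ± 0.29, past the technical interval for both. The change into suspension was not separable between the transcripts at this precision (-0.25 ± 0.29 and -0.38 ± 0.29). The step on return differed by -0.59 ± 0.29 and -0.55 ± 0.29, of which the first was just past the technical interval and the second was not.

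**Figure D3:**
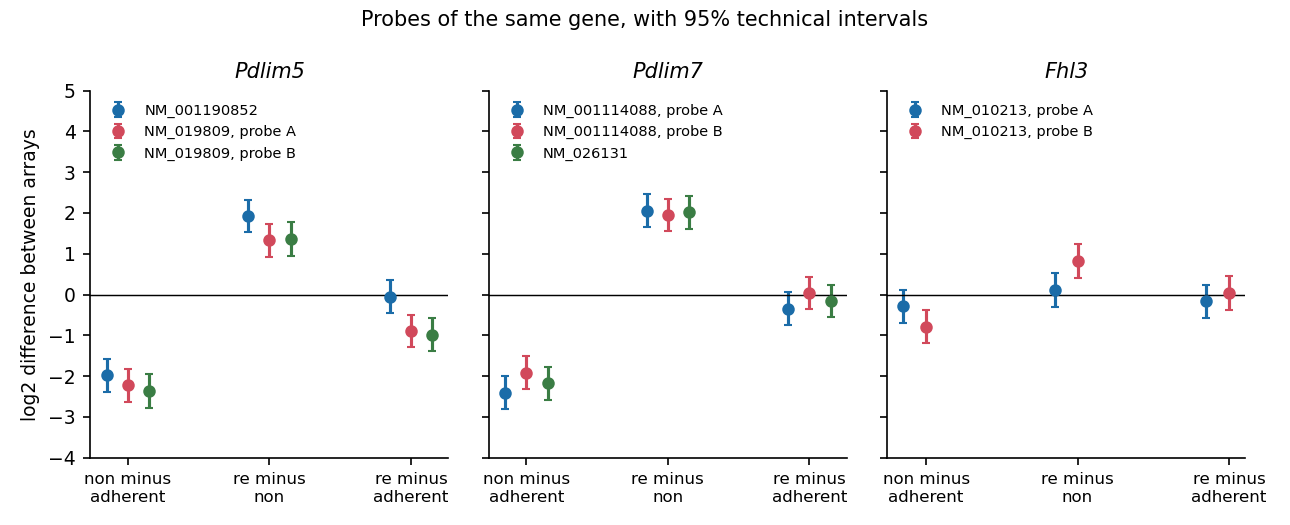
Log2 difference between arrays (vertical axis) in the 3 comparisons for each probe of Pdlim5, Pdlim7 and Fhl3, named by RefSeq transcript; bars are 95% technical intervals. The Pdlim7 probes overlap throughout, both NM_019809 probes of Pdlim5 lie lower than the NM_001190852 probe in re-adherent minus adherent cells, and the Fhl3 probes differ most on return to plates.

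Csrp1, a cysteine-rich protein that binds α-actinin and zyxin on actin bundles and is abundant in smooth muscle, gave 174772 in adherent cells, 50607 in suspension and 144534 after re-attachment. It was 3.70-fold lower in suspension (-1.89 ± 0.20, 27.1% left) and 3.68-fold higher on return (1.88 ± 0.20). With the scaling used for these folds, Csrp1 had the smallest net difference of the 9 genes between re-adherent and adherent cells, -0.01 ± 0.20. With no scaling it was -0.27, beside -0.04 for Fhl2, and with quantile normalization -0.32, beside -0.04 for Fhl2. With spike-in scaling it was -0.49, beside -0.05 for Pdlim1, so Csrp1 was not the smallest under these alternatives. Quantile normalization also reduced the Csrp1 steps to -1.49 into suspension and 1.17 on return. Csrp2, its close relative, read 27141, 4342 and 11487 in the same order of states. Csrp2 fell further than Csrp1, by 0.86 ± 0.29 log2 units, rose by 1.77 on return, beside 1.88 for Csrp1, and so ended at -0.97 ± 0.20 from adherent cells.

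From the largest fall to the smallest, the order of the 9 genes was Fhl1, Fhl2, Flnc, Pdlim7, Pdlim1, Pdlim5, Csrp1, Flna and Fhl3. Only 3 gaps between neighbours in this order were past the technical interval: Fhl2 to Flnc (1.12 ± 0.29), Flnc to Pdlim7 (0.79 ± 0.29) and Flna to Fhl3 (1.31 ± 0.29). By these gaps the order split into Fhl1 with Fhl2, then Flnc, then Pdlim7, Pdlim1, Pdlim5, Csrp1 and Flna, then Fhl3. In the run from Pdlim7 to Flna no neighbours could be separated, but its falls were not all equal. Its ends were -2.40 for Pdlim7 and -1.59 for Flna, and only neighbours were compared. Past 4-fold lower in suspension were Flnc, Fhl1, Fhl2, Pdlim1 and Pdlim7, which makes 5 of 9 beside 5.34% of all genes. The same 5 were past 4-fold higher on return, beside 5.7% of all genes. The share of the log2 fall regained, for the brightest probe, was 85.5% for Pdlim7, 90.1% for Fhl1, 97.4% for Pdlim5 and 98.5% for Flna. It was 99.6% for Csrp1, 103% for Flnc, 105% for Fhl2 and 118% for Pdlim1. For Fhl3, whose fall was within the technical interval, it was 40.8%. The NM_019809 probes of Pdlim5 regained less, with -2.23 then 1.33 and -2.36 then 1.37. The shares also varied with the scaling: with quantile normalization Flna gave -1.17 then 0.84. By the brightest probe of each gene, only Fhl1 and Pdlim1 had a re-adherent level that differed from the adherent one by more than the technical interval, in opposite directions. The median net difference was -0.02 over the 9 genes and 0.06 over all genes. The sign of the net difference changed with the scaling for Flnc, Fhl2 and Pdlim1, while the other 6 were below 0 under every scaling tried. With spike-in scaling all 9 were below 0, between -0.95 and -0.052, where the median of all genes was -0.41.

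**Figure D4:**
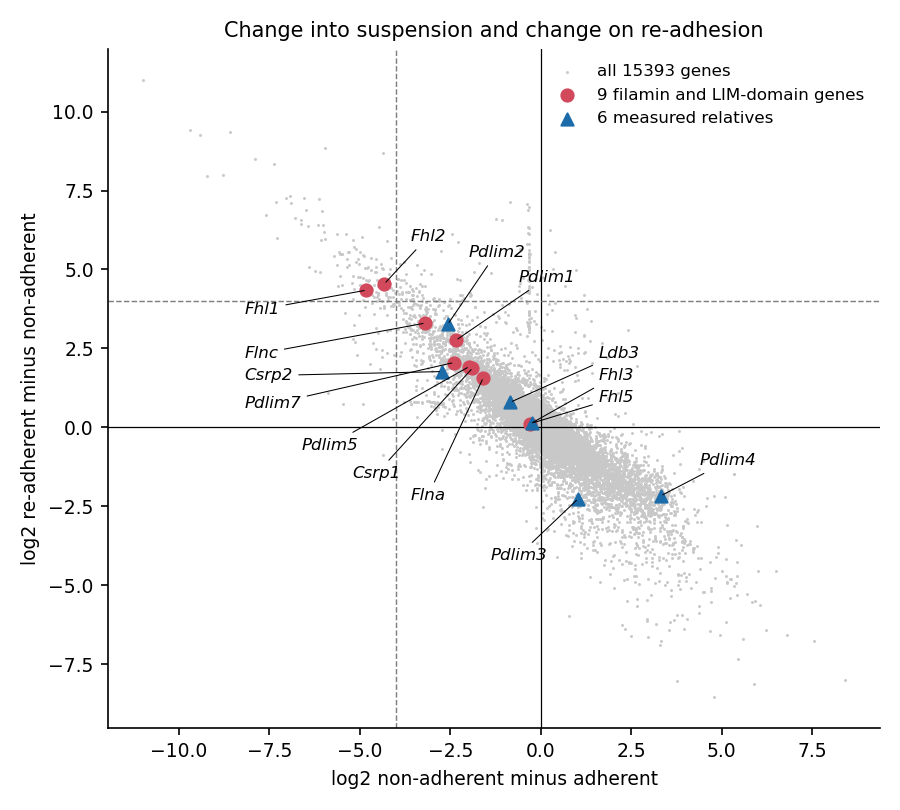
Log2 difference non-adherent minus adherent (horizontal axis) against re-adherent minus non-adherent (vertical axis) for 15393 genes in grey, the 9 genes as red circles and their 6 measured relatives as blue triangles; dashed lines mark the 16-fold threshold. Both axes share the non-adherent array, which by itself ties them; Fhl1 and Fhl2 lie beyond both dashed lines, Fhl3 lies near the origin, and Pdlim3 and Pdlim4 lie on the opposite side from the other labelled genes.

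Not every relative of these genes followed them. Of 6 relatives measured of 8 listed, 2 were over 2-fold lower in suspension (Csrp2 and Pdlim2) and 2 were over 2-fold higher (Pdlim3 and Pdlim4), with a median of -0.54. Pdlim4, a PDZ and LIM protein that binds α-actinin as Pdlim1 does, rose from 1702 in adherent cells to 18252 in suspension and dropped to 3164 after re-attachment. Its differences were 3.32 ± 0.20 and -2.16 ± 0.20, against -2.34 and 2.76 for Pdlim1. The gap between Pdlim4 and Pdlim1 was 5.66 ± 0.29 log2 units into suspension and -4.93 ± 0.29 on return. Pdlim4 was higher in suspension, as were the macrophage markers given above, and their part in its rise was not tested. Pdlim3 rose less in suspension (1.03 ± 0.20) and ended lower than in adherent cells (-1.24 ± 0.20). Pdlim2 moved with Pdlim1, from 39489 to 7133 and up to 53441, and the change into suspension did not differ from that of Pdlim1 past the technical error (-0.23 ± 0.29). Ldb3, a Z-disc protein, differed by -0.84 and 0.80 in the 2 steps.

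Among other LIM proteins of the cytoskeleton and of adhesions, 28 of 31 genes were measured. In suspension 10 passed 2-fold downwards and 1 upwards, with a median of -0.73, and on return 11 were over 2-fold higher and 1 lower, with a median of 0.71. None of the 28 differed over 2-fold between re-adherent and adherent cells, beside 4.9% of all genes downwards and 4.84% upwards. Lims2, which joins integrin-linked kinase and parvin in a complex at adhesions, showed the largest fall, from 9267 to 277 and back to 4503 (-5.16 ± 0.20 and 4.39 ± 0.20). Its relative Lims1 differed by -0.79 and Lims2 minus Lims1 was -4.38 ± 0.29. The 1 gene over 2-fold higher in suspension was Lpxn, a paxillin relative found mainly in leukocytes, at 2263, 15820 and 3297 (2.71 and -1.90), in the direction of the macrophage markers. Their part in the Lpxn rise was not tested. Of proteins that bind filamins, 7 of 10 were measured, of which 3 were over 2-fold lower in suspension and none higher (median -0.86). Over all genes the shares were 14.7% and 17.2%. The 3 include Asb2 (171, 6.75 and 178), which was not above background in suspension. Among the filamin partners above background throughout, Filip1l fell most (-2.53, then 2.15) and Synpo2 least (-0.38).

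LIM proteins of the nucleus were examined as a contrast in location. Of 16 genes, 10 were measured and 7 were well above background on all 3 arrays. In suspension 4 of the 10 passed 2-fold downwards and 2 upwards, with a median of -0.60. These counts include genes near background: Lhx4 and Lhx9, both lower, were not above it in suspension. Lhx3, which was higher, was above background in suspension only. Lhx6 had the largest fall of those above background throughout (-1.55) and Lmo2, a cofactor of blood cell development, the largest rise (3.35, then -2.47). The median of the 9 genes, -2.34, was below that of each of these 4 lists, which is a description without a test, since the 9 genes were picked with earlier results known.

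**Figure D5:**
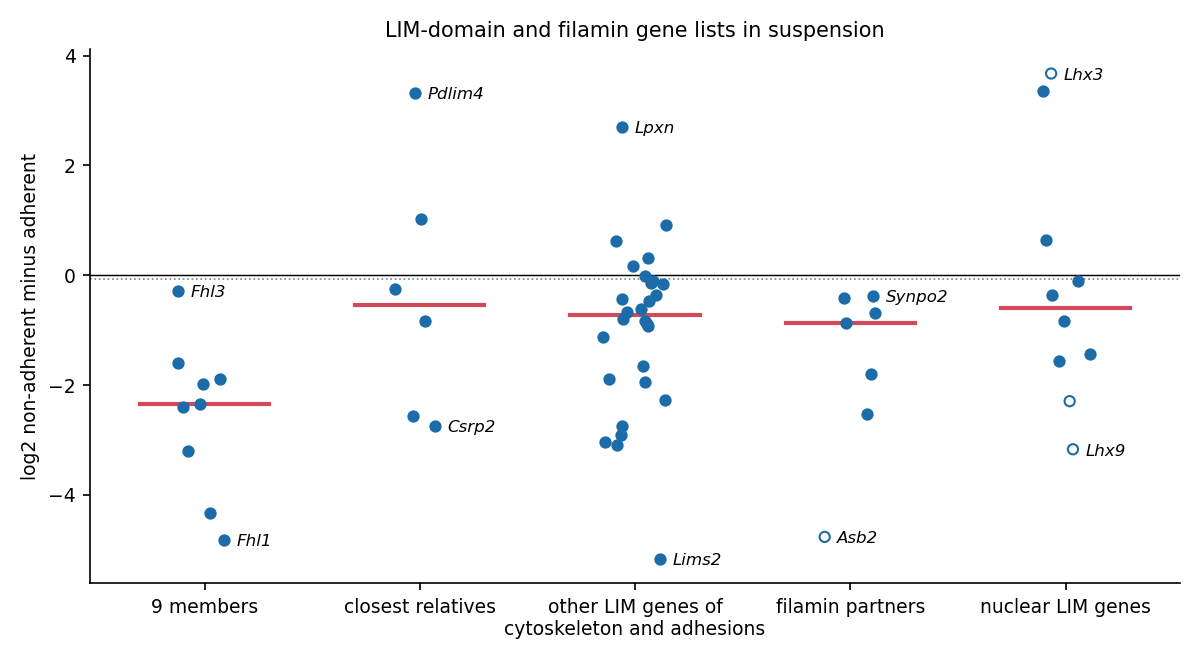
Log2 difference non-adherent minus adherent (vertical axis) for each measured gene of 5 lists; red lines are list medians, the dotted line is the median over all genes, and open circles are genes not well above background on at least 1 array. The 9 members, with a median of -2.34, and the 7 filamin partners, with a median of -0.86, lie wholly below 0, whereas the lists of relatives, other LIM genes and nuclear LIM genes have genes on both sides of 0.

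The genes closest to Flna, Fhl2 and Csrp1 in both steps were found among the 13475 genes well above background on all arrays, by Euclidean distance over both log2 differences. Closest to Flna were Dipk2a, Afap1, an actin filament-associated protein, and Kctd5, at distances of 0.020, 0.024 and 0.027, and 106 genes lay within 0.2. Closest to Fhl2 were Parva (0.028), which encodes α-parvin of integrin adhesions, Fosl1 (0.092), an AP-1 subunit, and Csf1 (0.165), a macrophage growth factor. Only 4 genes lay within 0.2 of Fhl2. Closest to Csrp1 were Cnn3 (0.026), an actin-binding calponin, Csrnp1 (0.027) and Cttn (0.046), which encodes the actin-binding protein cortactin, with 60 genes within 0.2. All these distances are below the technical error of a difference, so the order within them carries no information.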

How the data were processed

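RNA from adherent, non-adherent and re-adherent cells was labelled with Cy3 and hybridised to 3 Agilent SurePrint G3 mouse arrays, 1 per state, on 1 slide. The authors deposited scanner output with the intensity of each of 62976 spots per array, made with Agilent Feature Extraction 10.10.1.1 (version per the file headers), as background-subtracted processed signal. The deposited value table of intensity equalled that signal times 1.52, 1.52 and 1.62 for the 3 arrays, and its column medians were 60.8, 61.8 and 50.7. The normalization behind it is not given in the sources used here.

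Here outlier spots were left out, and the 75th percentile of the spots that are not controls (651, 697 and 541) was subtracted per array on the log2 scale. Probes well above background on at least 1 array entered. Of 37874 transcript names, 21462 matched RefSeq (GRCm38.p6) without version, which named 27229 of 55665 probes. A gene was represented by its brightest probe. Technical errors were the error values that the software assigns, combined over both arrays of a difference (median 0.20). Probes spotted 10 times gave a smaller spread, with a median SD of 0.074, 0.078 and 0.062 over the 3 comparisons. With 1 array per state, the variation between cultures could not be measured, and no test was run. The 100 to 112 non-control spots around each probe of these genes had median differences of -0.37 to -0.07 into suspension, 0.13 to 0.75 on return and 0.04 to 0.36 between re-adherent and adherent cells.

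The 9 genes and all gene lists were chosen with earlier results of these data known. Named beside the 9 genes are, from each list, the gene with the largest rise and fall in suspension among those above background throughout, Csrp2, and the 3 nearest genes of Flna, Fhl2 and Csrp1. Pdlim2, Pdlim3, Fhl5, Ldb3 and Lims1 were named after their values were seen. An item that the rule also named is not reported here. Alternatives were normexp background correction with an offset of 50 (limma 3.58.1 in R 4.3.3) on the median in place of the mean spot signal, other scalings, a floor for low signals, other filters, the median over probes and other fold thresholds. Scripts ran in Python 3.11.15 with numpy 2.4.6 and pandas 2.3.3 and were tested on simulated data.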

Additional observations from a re-analysis of the deposited data

How the results depend on the processing

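No paired analysis was possible because a state has a single array, which also means that no array could be left out in turn. The median difference of the 9 genes between non-adherent and adherent cells was -2.34, and -2.57 with spike-in scaling. For re-adherent against non-adherent cells it was 2.05, and 1.69 with no scaling, 1.84 with quantile normalization, 1.80 with spike-in scaling and 1.78 with the authors' values. For re-adherent against adherent cells it was -0.02, and -0.29 with no scaling and -0.50 with spike-in scaling. Spike-in scaling also moved the median of all genes to -0.30, -0.17 and -0.41 in these comparisons. With 4-fold in place of 2-fold as the threshold, 5 genes were lower in suspension and 5 higher on return. The 2 genes past 16-fold in both steps became 1 with normexp and 1 with no scaling, since Fhl1 then missed the threshold. The excess of Pdlim1 in re-adherent cells reversed to -0.052 with spike-in scaling. Of 270 values of single genes under the alternatives, 195 moved by less than the technical error. The floor and both other filters, 27 values each, could not move them, as all 9 genes were above background on every array. Nor could the median over probes for the 6 genes with 1 probe. Spike-in scaling moved 26 of 27 and reversed 1, and no scaling moved 18. Quantile normalization moved 12, the authors' values 9, the median over probes 7 and normexp 2. The percentile over probes above background moved none. In all, 12 of the 270 values had the other sign: 1 of a difference past its technical interval (Pdlim1, above) and 11 of differences within it, which were those of Flnc, Fhl2 and Pdlim7 between re-adherent and adherent cells and of Fhl3 on return. A cause of these shifts was not tested.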
